A study of Mus musculus with 36 samples.

Results

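Mitochondrial fatty acid oxidation was followed in mouse kidney through 32 named genes, which were found by symbol among the 24883 rows of the deposited tables. All 32 had a row, and all 32 passed the filter of a mean of at least 1 FPKM (fragments normalised for transcript length and library size) over all libraries. The members are 4 long-chain acyl-CoA synthetases, 2 carnitine palmitoyltransferases, 10 acyl-CoA dehydrogenases, 5 enzymes from hydration to thiolysis, 4 enzymes for unsaturated acyl-CoAs, 3 electron transfer proteins, and 3 acyl-CoA thioesterases with the pantetheinase Vnn1. Not all of them act inside mitochondria alone: the synthetases face the cytosol, Acot1 is a cytosolic enzyme, Eci2 and Acad11 are also found in peroxisomes, and Vnn1 is anchored at the outer cell surface.

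The kidneys came from male wild-type mice of the strain C57BL/6J, entered at 6 weeks of age, on 12 h of light and 12 h of darkness. One set was fed a high-fat diet and the other normal chow, both ad libitum. The labels give 16 weeks for the harvest and put no further allele or agent in either diet. Times are given as zeitgeber time (ZT), with lights on at ZT0, and 3 libraries were made for each diet at ZT0, 4, 8, 12, 16 and 20, so that 18 high-fat libraries stand beside 18 chow libraries. These times were read from the sample titles and descriptions. The label that holds the diet names ZT3 in every sample, which is none of them.

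Fatty acids are joined to coenzyme A by acyl-CoA synthetases, carried across the mitochondrial membranes as carnitine esters by Cpt1a and Cpt2, and then shortened in repeated rounds of dehydrogenation, hydration, a further dehydrogenation and thiolysis. Electrons of the first step pass through the flavoprotein ETF, built from Etfa and Etfb, to the ubiquinone pool by way of Etfdh. The proximal tubule of the kidney draws much of its energy from this pathway, and many of its genes are known targets of the nuclear receptor PPARα, which binds direct repeats of AGGTCA spaced by 1 base.

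Relative depth, read from the steps between low FPKM values, spanned 0.331 to 1.39 in high-fat and 0.397 to 1.421 in chow libraries; total reads are not in the files, so absolute depth is unknown. Each diet has its own table, and whether both were normalised together is not stated in the labels, so a difference between the tables cannot be told apart from diet in any comparison of levels. The median log2 ratio of a library to the mean of all was -0.014 under high-fat diet and 0.018 under chow over 9689 genes. The labels do not say that the libraries of a group came from separate mice, so p-values measure the spread between these libraries. Markers of the proximal tubule summed to 71030 to 95200 FPKM under high-fat diet and 54400 to 98650 FPKM under chow, and none of the 16 was at 0 in any library. Kap alone averaged 75220 FPKM under high-fat diet and 73310 FPKM under chow, so this sum mostly follows 1 gene. Markers of other tissue stood out in some libraries. Those of the adrenal gland, 13 genes, summed to 82.5 to 4317 FPKM in 4 chow libraries (ZT0 replicate 5, ZT4 replicates 2 and 3, ZT16 replicate 4), against at most 4.67 FPKM in high-fat and 6.38 FPKM in the other chow libraries. Markers of adipocytes, 15 genes, summed to between 152 and 1125 FPKM (median 415) under high-fat diet and to between 301 and 3591 FPKM (median 1114) under chow; 12 of the 15 were lower and 1 was higher under high-fat diet. In whole kidney, fewer cells of a type and less RNA per cell cannot be told apart.

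The promoters of 5 members are shown, from RefSeq on GRCm38.p6, each with 250 bases before and 50 bases after the start of the gene, in lower case with any AGGTCA in capitals on either strand. Of the 32 members, 27 had such a sequence in the table, Acsl1 with 2 of them; Acaa2, Acad9, Decr1, Acot13 and Vnn1 had none. Acad10 (chr5:121660461-121660760, minus strand) and Acad12 (chr5:121618889-121619188, minus strand) are neighbours 2087 bases apart and are both shown because both rose under the high-fat diet. Acadvl (chr11:70015379-70015678, minus strand) is shown as a member that rose and carries the receptor half-site. Acot1 (chr12:84009252-84009551, plus strand) and Acot2 (chr12:83987611-83987910, plus strand), 15616 bases apart, are shown as the members for which a daily rhythm was called under the high-fat diet.
Acad10: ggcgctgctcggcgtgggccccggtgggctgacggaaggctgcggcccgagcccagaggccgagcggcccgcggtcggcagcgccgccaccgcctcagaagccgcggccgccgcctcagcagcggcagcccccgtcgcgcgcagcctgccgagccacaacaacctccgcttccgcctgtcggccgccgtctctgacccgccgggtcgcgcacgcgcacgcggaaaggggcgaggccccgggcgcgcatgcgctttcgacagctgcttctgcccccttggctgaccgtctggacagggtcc
Acad12: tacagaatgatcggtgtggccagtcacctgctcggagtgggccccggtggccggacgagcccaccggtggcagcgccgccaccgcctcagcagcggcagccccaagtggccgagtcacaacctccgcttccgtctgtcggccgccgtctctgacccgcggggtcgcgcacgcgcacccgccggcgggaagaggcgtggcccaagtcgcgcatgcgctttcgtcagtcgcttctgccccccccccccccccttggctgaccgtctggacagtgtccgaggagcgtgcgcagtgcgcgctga
Acadvl: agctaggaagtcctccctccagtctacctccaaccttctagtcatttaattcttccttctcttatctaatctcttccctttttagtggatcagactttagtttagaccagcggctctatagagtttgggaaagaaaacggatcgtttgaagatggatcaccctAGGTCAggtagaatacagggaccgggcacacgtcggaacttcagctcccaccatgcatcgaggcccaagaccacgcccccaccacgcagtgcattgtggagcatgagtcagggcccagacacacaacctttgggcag
Acot1: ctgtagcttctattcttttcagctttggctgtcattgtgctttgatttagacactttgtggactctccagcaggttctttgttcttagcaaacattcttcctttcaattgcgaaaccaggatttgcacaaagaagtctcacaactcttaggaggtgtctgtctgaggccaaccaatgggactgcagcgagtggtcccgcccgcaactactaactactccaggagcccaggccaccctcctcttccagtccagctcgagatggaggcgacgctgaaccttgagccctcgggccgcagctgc
Acot2: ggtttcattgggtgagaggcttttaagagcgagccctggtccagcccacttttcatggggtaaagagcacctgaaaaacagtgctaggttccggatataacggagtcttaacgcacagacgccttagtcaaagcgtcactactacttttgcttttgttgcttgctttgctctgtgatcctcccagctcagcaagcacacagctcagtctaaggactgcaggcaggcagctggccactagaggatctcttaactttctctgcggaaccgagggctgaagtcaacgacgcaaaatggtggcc

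The promoters of Acad10 and Acad12 share an identical run of 25 bases, which starts 75 bases before the start of Acad10 and 117 bases before that of Acad12. Another identical run of that length lies nearer the end of both sequences. Those of Acot1 and Acot2 share no run longer than 9 bases. The half-site AGGTCA was found on either strand in the promoters of 4 of the 27 members, Cpt1a, Acadvl, Acadm and Echs1, and in those of 18.131% of all 27025 genes in the table. A direct repeat spaced by 1 base was searched as AGGTCANAGGTCA, which was in 0 of the 27 members and 0.048% of all genes, and as AGGNCANAGGNCA, which was in 0 of the 27 members and 0.451% of all genes; every match to the first is also a match to the second and holds the half-site. The E-box CACGTG of the clock factors was in 0 of 27 members against 8.093% of all genes, and the D-box TTATGNAA in 0 of 27 members against 3.993%. These counts say only that the letters are or are not in these 300 bases.

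The members were expressed over a wide range. Per transcript length, Etfb averaged 826 ± 87.3 FPKM under high-fat diet and 867 ± 95.6 FPKM under chow (SD, n = 18 each), the highest level of the list. Ech1 and Hadh followed, with means over all 36 libraries of 587 and 363 FPKM. The synthetases Acsl3 and Acsl4 were lowest, at 3.52 and 3.51 FPKM over all libraries. In the gene models of GENCODE M21, 67.3% of the 50-base windows of the longest Etfb transcript recur in the overlapping model Gm45233, so the level of Etfb is uncertain.

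Over the day, 9 of the 32 members were higher under the high-fat diet, 1 was lower and 22 did not pass the test (limma on log2(FPKM + 0.5), Benjamini-Hochberg adjusted p under 0.05 over 11144 genes). Of all genes tested, 16.6% passed in either direction, 5.25% higher and 11.4% lower. The members that rose were Acad10, Vnn1, Acad12, Ech1, Cpt2, Acadvl, Acadl, Hadh and Decr1, and the one that fell was Acsl3. The median difference over the members was 0.08 log2, against -0.03 over all genes, and 22 of 32 estimates were above 0, against 38.7% of all genes. The changes were small, between -0.31 and 0.38 log2, on a scale that slightly understates the change of low genes. An unadjusted p under 0.05 was reached by 20 of 32 members and 30% of all genes.

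**Figure D1:**
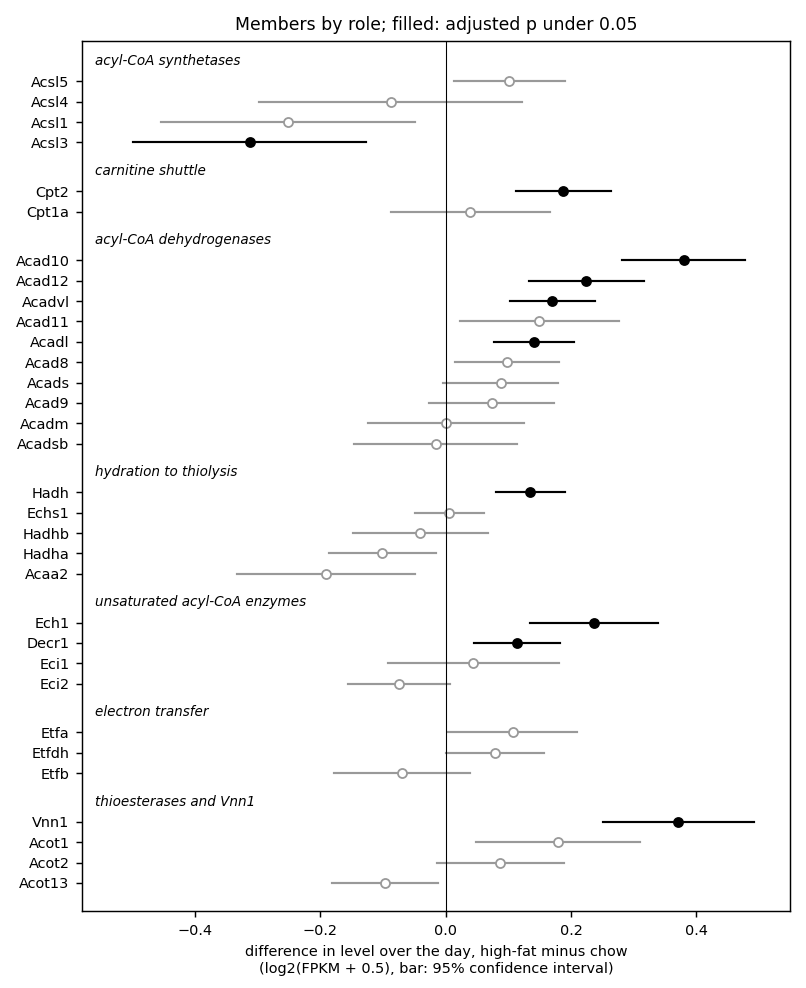
Difference in level over the day for the 32 members, high-fat minus chow in log2(FPKM + 0.5), grouped by role; points are limma estimates, bars their 95% confidence intervals, and filled points passed the adjusted threshold. The 9 filled points right of 0 run between 0.11 and 0.38, and the 1 filled point left of 0 is Acsl3 at -0.31.

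None of the 4 acyl-CoA synthetases, which commit a fatty acid to metabolism by joining it to coenzyme A, rose, and 1 fell. Acsl3, on chromosome 1 from 78657825 to 78707743 (GRCm38, plus strand), a synthetase associated with the endoplasmic reticulum and lipid droplets, had a lowest value of 1.71 FPKM, a median of 3.04 FPKM and a highest of 4.85 FPKM under high-fat diet, against 1.79, 3.78 and 6.53 FPKM under chow. The ranges overlapped, and 15 of 18 high-fat libraries lay below the chow mean of their time. Acsl3 fell by 0.31 log2 (SE 0.09, limma adjusted p = 0.01709). Acsl1, which supplies acyl-CoAs for oxidation in several tissues, averaged 25.7 ± 7.61 FPKM under high-fat diet and 30.6 ± 8.48 FPKM under chow (SD, n = 18 each). Its difference of -0.25 log2 did not pass (limma adjusted p = 0.08116). It passed in 4 of its 48 alternatives, over which the adjusted p reached 0.421. Without the 4 chow libraries that held adrenal transcripts the difference was -0.38 log2. That fit leaves 1 chow library at ZT4, replicate 4, which held the highest chow value of Acsl1 (49.0 FPKM). Acsl5, found at mitochondria and the endoplasmic reticulum, had a difference of 0.10 log2 (adjusted p = 0.1084), and Acsl4, which prefers arachidonic acid, one of -0.09 log2 (adjusted p = 0.6134).

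Of the carnitine palmitoyltransferases, Cpt2 rose and Cpt1a did not pass. Cpt2, the inner-membrane enzyme that reforms acyl-CoA in the matrix (chromosome 4, 107903981 to 107923610, minus strand), ranged from 66.6 to 89.7 FPKM under high-fat diet with a median of 76.6 FPKM, and from 51.6 to 81.2 FPKM under chow with a median of 66.8 FPKM. Its difference was 0.19 log2 (SE 0.04, limma adjusted p = 0.0005983), and its mean was higher at all 6 times. Cpt1a, the outer-membrane enzyme that malonyl-CoA inhibits, averaged 69.3 ± 11.6 FPKM under high-fat diet and 68.2 ± 15.9 FPKM under chow (SD, n = 18 each), a difference of 0.04 log2 with a 95% confidence interval of -0.09 to 0.17.

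Among the 10 acyl-CoA dehydrogenases, which take the first pair of electrons from the acyl chain, 4 rose and none fell. Acad10, a dehydrogenase with a less defined substrate (chromosome 5, 121621026 to 121660514, minus strand), had the largest increase of the 32 members. It ranged from 25.0 to 39.9 FPKM under high-fat diet with a median of 31.7 FPKM, and from 20.2 to 32.1 FPKM under chow with a median of 24.7 FPKM. All 18 high-fat libraries lay above the chow mean of their time, and the 3 high-fat values lay above the 3 chow values at 5 of the 6 times, as they did at 5 or more times in 0.592% of all genes. Its increase was 30.1% (0.38 log2, SE 0.05, limma adjusted p = 1.623e-06). Its neighbour Acad12 (chromosome 5, 121596775 to 121618938, minus strand), a related gene, averaged 16.2 ± 1.78 FPKM under high-fat diet and 13.8 ± 1.57 FPKM under chow (SD, n = 18 each), a rise of 0.22 log2 (SE 0.04, adjusted p = 0.0006433). The pair share sequence: 18.3% of the 50-base windows of the longest Acad10 transcript recur in Acad12 and 20.3% of those of Acad12 in Acad10, so the split of reads between both is uncertain.

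The other dehydrogenases that rose were Acadvl and Acadl. Acadvl, the very long-chain enzyme of the inner membrane (chromosome 11, 70010183 to 70015411, minus strand), had a lowest value of 173 FPKM, a median of 190 FPKM and a highest of 210 FPKM under high-fat diet, against 152, 168 and 219 FPKM under chow, a rise of 0.17 log2 (SE 0.03, limma adjusted p = 0.0005574). The highest chow value was that of a single ZT4 library, and 15 of 18 high-fat libraries lay above the chow mean of their time. Acadl, the long-chain enzyme (chromosome 1, 66830839 to 66863277, minus strand), averaged 149 ± 14.2 FPKM under high-fat diet and 135 ± 7.65 FPKM under chow (SD, n = 18 each), a rise of 0.14 log2 (SE 0.03, adjusted p = 0.002053). The medium-chain enzyme Acadm differed by 0.00 log2 with a 95% confidence interval of -0.12 to 0.12, and the short-chain enzyme Acads by 0.09 log2 (-0.004 to 0.18); neither passed. Acad11, with a difference of 0.15 log2, Acad8, which acts in valine breakdown, with 0.10 log2, Acad9, which also helps assemble respiratory complex I, with 0.07 log2, and the branched-chain enzyme Acadsb, with -0.02 log2, did not pass.

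**Figure D2:**
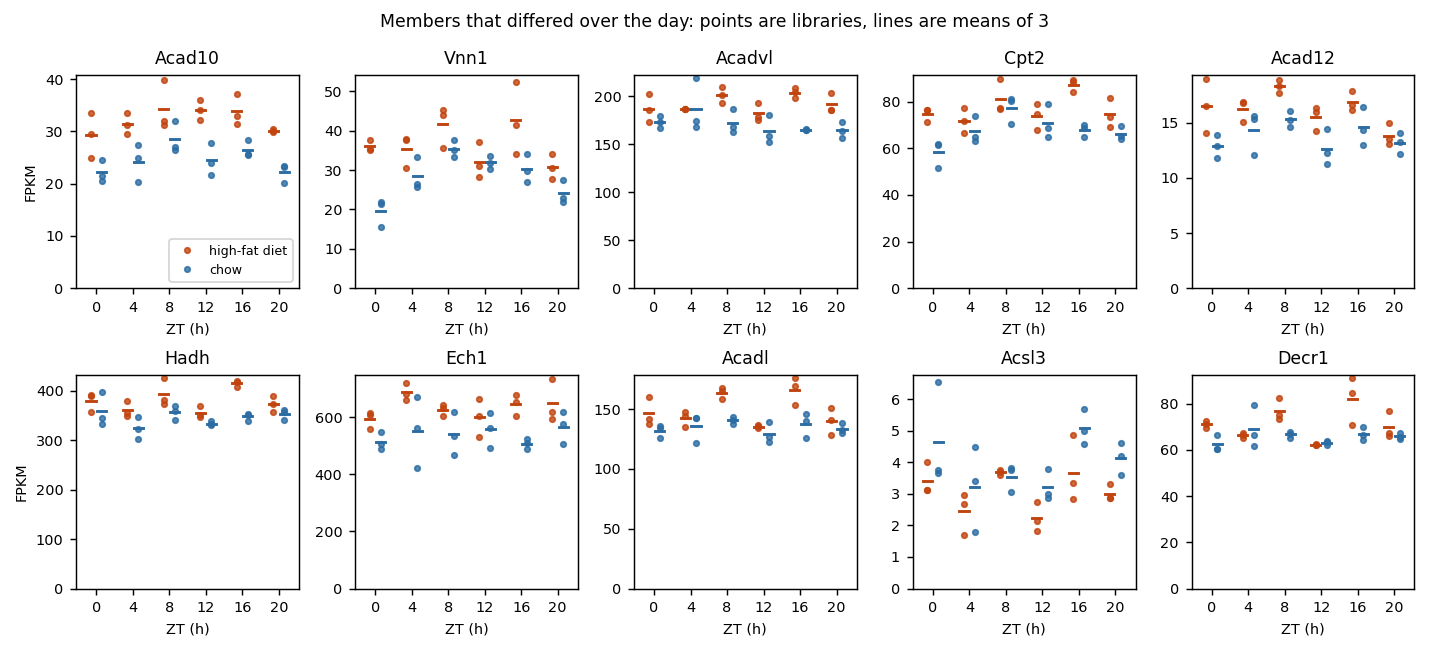
FPKM of the 10 members that differed over the day, by time of day; points are libraries, horizontal lines the means of 3, high-fat diet left of chow at each time, and every axis starts at 0. Acad10 in high-fat libraries, 25.0 to 39.9 FPKM, lies above chow at most times, whereas Acsl3 is mostly lower in high-fat than in chow libraries.

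Of the 5 enzymes from hydration to thiolysis, Hadh alone passed. Hadh, the short-chain 3-hydroxyacyl-CoA dehydrogenase (chromosome 3, 131233419 to 131272101, minus strand), ranged from 348 to 427 FPKM under high-fat diet with a median of 377 FPKM, and from 303 to 397 FPKM under chow with a median of 344 FPKM. The high-fat values lay above all chow values of the same time at 4 of 6 times (4 or more in 1.4% of all genes), and the rise was 9.83% (0.14 log2, SE 0.03, limma adjusted p = 0.0007082). Hadha and Hadhb, the subunits of the trifunctional protein, are neighbours 85 bases apart on opposite strands of chromosome 5 and had differences of -0.10 and -0.04 log2 (adjusted p = 0.09873 and 0.658). Hadha was below the chow mean of its time in 17 of 18 high-fat libraries. The thiolase Acaa2 averaged 202 ± 22.4 FPKM under high-fat diet and 233 ± 46.8 FPKM under chow (SD, n = 18 each), a difference of -0.19 log2 that did not pass (adjusted p = 0.05834). The hydratase Echs1 differed by 0.01 log2, with a 95% confidence interval of -0.05 to 0.06.

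Of the 4 enzymes that handle unsaturated acyl-CoAs, Ech1 and Decr1 rose. Ech1, a dienoyl-CoA isomerase (chromosome 7, 28825217 to 28832247, plus strand), had a lowest value of 530 FPKM, a median of 626 FPKM and a highest of 733 FPKM under high-fat diet, against 422, 530 and 671 FPKM under chow. Its rise was 17.8% (0.24 log2, SE 0.05, limma adjusted p = 0.001218), with 17 of 18 high-fat libraries above the chow mean of their time. Decr1, the 2,4-dienoyl-CoA reductase (chromosome 4, 15917240 to 15945507, minus strand), averaged 71.4 ± 8.09 FPKM under high-fat diet and 65.7 ± 4.29 FPKM under chow (SD, n = 18 each). Its rise was 0.11 log2 (SE 0.03, limma adjusted p = 0.01908, with a range of 0.00199 to 0.2517 over its alternatives). Without the 4 chow libraries that held adrenal transcripts the rise was 0.075 log2. In that fit 1 chow library is left at ZT4, replicate 4, which held the highest chow value of Decr1 (79.4 FPKM). At ZT4 and ZT12 its mean was lower under high-fat diet. The isomerases Eci1 and Eci2 had differences of 0.04 and -0.07 log2 and did not pass.

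No electron transfer gene passed. Etfa and Etfdh had differences of 0.11 and 0.08 log2 (limma adjusted p = 0.1478 and 0.162), and Etfb one of -0.07 log2 (adjusted p = 0.4024). Among the thioesterases, which release free fatty acid and coenzyme A, Acot1 had a difference of 0.18 log2 just outside the threshold (adjusted p = 0.05418), Acot2 one of 0.09 log2 and Acot13 one of -0.10 log2. Vnn1, which splits pantetheine into cysteamine and pantothenic acid, the vitamin from which coenzyme A is made (chromosome 10, 23894688 to 23905343, plus strand), ranged from 27.8 to 52.4 FPKM under high-fat diet with a median of 35.5 FPKM, and from 15.6 to 37.7 FPKM under chow with a median of 28.7 FPKM. It rose by 0.37 log2 (SE 0.06, adjusted p = 4.479e-05), and 16 of 18 high-fat libraries lay above the chow mean of their time.

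Of the markers of other tissue given above, most adipocyte markers were lower under high-fat diet, and adrenal markers stood out in 4 chow libraries, though only 1 of the 10 tested passed. With the mean log2 level of the 15 adipocyte markers as a covariate, 5 of the 9 increases stayed past the threshold, those of Acad10, Vnn1, Acadvl, Cpt2 and Hadh, as did the fall of Acsl3. Acad12, Ech1, Acadl and Decr1 did not (limma adjusted p = 0.06889, 0.06805, 0.0844 and 0.2517, each the highest over that gene's alternatives, whose lowest were 4.019e-05, 5.828e-05, 0.0001271 and 0.00199). Their estimates with the covariate were 0.17, 0.20, 0.12 and 0.09 log2, against 0.22, 0.24, 0.14 and 0.11 log2 without it. Under that fit 2.51% of all genes were higher and 4.93% lower. The markers themselves moved with diet by unlike amounts, such as Cfd by -5.10, Fabp4 by -0.93, Tusc5 by -0.01 and Lep by 1.69 log2. Such a covariate takes up part of the difference between diets, so fat content and diet cannot be told apart in this fit. Without the 4 libraries with adrenal transcripts 12 members were higher and 2 lower, with 8 of the 9 kept (5.74% and 15% of all genes). Rescaling each library by its median ratio to the others, after which the median difference of all genes was -0.0018 log2, gave 15 members higher and 1 lower, with all 9 kept (7.5% of all genes higher, 7.49% lower).

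At single times the comparison rested on 3 against 3 libraries, and 2 members passed, both at ZT0, when 1.59% of all genes did. Vnn1 at ZT0 had 35.2, 35.3 and 37.6 FPKM under high-fat diet, against 15.6, 21.4 and 21.8 FPKM under chow. The groups did not overlap, and the difference was 0.88 log2 (SE 0.15, limma adjusted p = 0.0009905). Cpt2 at ZT0 had 71.4, 76.5 and 76.5 FPKM under high-fat diet, against 51.6, 61.3 and 61.8 FPKM under chow, again without overlap (0.36 log2, SE 0.09, adjusted p = 0.0351). Cpt2 did not pass without chow ZT0 replicate 4 (0.28 log2, adjusted p = 0.1409) or without any single high-fat ZT0 library (adjusted p = 0.06297 to 0.1457, the last being the highest over its alternatives and 0.00267 the lowest).

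No member passed at ZT4, 8, 12, 16 or 20, where limma called 1.61%, 0.332%, 0.368%, 0.556% and 0.26% of all genes; unadjusted p was under 0.05 for 9, 10, 4, 11 and 3 members at those times and for 10 at ZT0, against 17.3%, 9.57%, 7.12%, 7.32% and 6.45% of all genes at those times and 14.1% at ZT0. The 2 members with the smallest p among increases at ZT16 were Cpt2, with 84.2, 88.2 and 89.4 FPKM under high-fat diet against 64.8, 68.6 and 69.9 FPKM under chow (adjusted p = 0.06076), and Hadh, with 409, 419 and 419 FPKM under high-fat diet against 340, 351 and 354 FPKM under chow (adjusted p = 0.08633). Neither pair of groups overlapped. At ZT12 Acad10 had 32.1, 34.1 and 36.1 FPKM under high-fat diet against 21.7, 23.96 and 27.8 FPKM under chow (adjusted p = 0.0766). Acsl1 at ZT4 had the smallest p of a lower estimate, with 15.5, 19.0 and 20.1 FPKM under high-fat diet against 17.7, 38.1 and 49.0 FPKM under chow (-0.81 log2, adjusted p = 0.08405). The low and middle chow values there are from libraries with adrenal transcripts, and the low one lies within the high-fat range. Without the libraries with adrenal transcripts, which leaves 1 chow library at ZT4, 21 members passed at ZT4, against 44.3% of all genes. Leaving out chow ZT4 replicate 2 alone gave 5 members at ZT4 and 2 at ZT16, and leaving out chow ZT4 replicate 4 gave 2 at each. The shares of all genes in these fits were not tallied, so these counts are not read as a result about the members.

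In 15 of 32 members all 3 high-fat values lay above all 3 chow values at 2 or more times, against 7.53% of all genes, and in 2 members, Acsl3 and Acaa2, they lay below at 2 or more times, against 13.6% of all genes. The median difference over the members was 0.12 log2 at ZT0, -0.06 at ZT4, 0.15 at ZT8, -0.02 at ZT12, 0.18 at ZT16 and 0.04 at ZT20. Over all genes it was -0.05, -0.11, 0.01, -0.01, 0.00 and -0.02 log2 at those times.

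**Figure D3:**
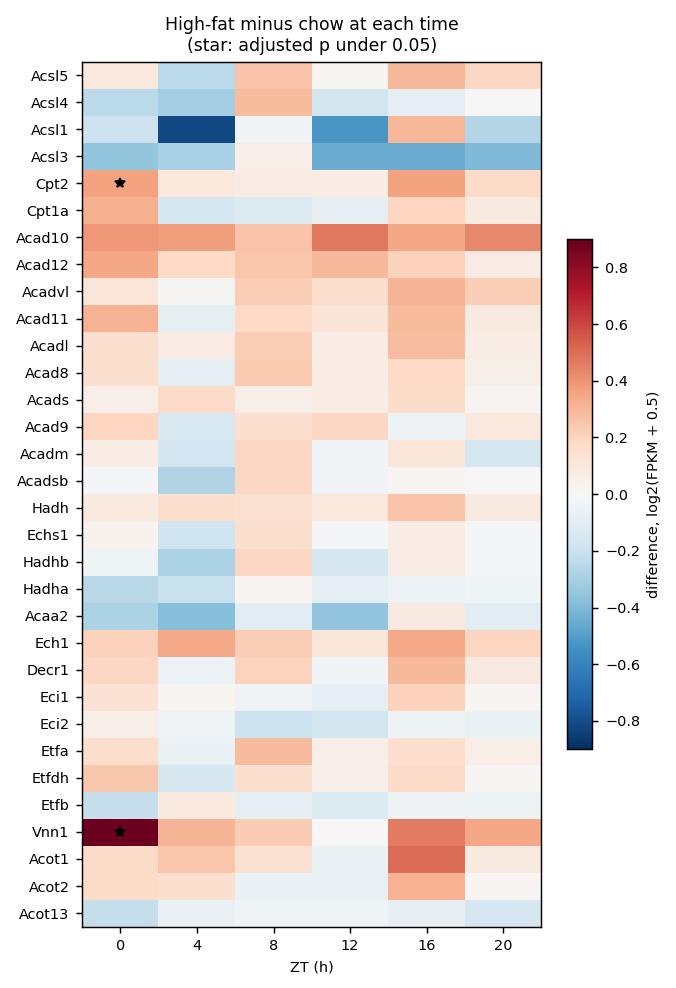
Difference in log2(FPKM + 0.5) between diets at each time, high-fat minus chow, for the 32 members in order of role; red is higher and blue lower under high-fat diet, and stars mark the 2 differences past the adjusted threshold, Vnn1 and Cpt2 at ZT0. The median row is at 0.12, 0.15 and 0.18 log2 at ZT0, ZT8 and ZT16 and at -0.06 and -0.02 log2 at ZT4 and ZT12, and Acad10 is red at all 6 times.

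A daily rhythm was tested within each diet by fitting 24 h cosine and sine terms together to its 18 libraries. Under the high-fat diet 2 of 32 members were rhythmic, against 7.3% of all genes. Acot1, a fatty acyl-CoA thioesterase, had a peak-to-trough difference of 0.76 log2 (SE 0.15) with a peak at 21.9 ± 0.74 h (SE; limma adjusted p = 0.008879). Its means from ZT0 to ZT20 under high-fat diet were 33.6, 31.1, 24.5, 19.9, 33.4 and 36.9 FPKM, so that ZT12 was lowest and ZT20 highest. Acot2, its mitochondrial relative, had a peak-to-trough difference of 0.35 log2 (SE 0.07) with a peak at 22.6 ± 0.79 h (adjusted p = 0.01467) and means of 15.0, 14.0, 12.3, 11.6, 13.8 and 14.7 FPKM. Of the 50-base windows of the longest transcripts, 17.6% of those of Acot1 recur in Acot2 and 24.5% of those of Acot2 in Acot1, so the split of reads between this pair is uncertain.

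Under chow 5 of 32 members were rhythmic, against 7.77% of all genes. Vnn1 had a peak-to-trough difference of 0.73 log2 (SE 0.13) with a peak at 10.6 ± 0.66 h (SE; limma adjusted p = 0.003555), and chow means from ZT0 to ZT20 of 19.6, 28.5, 35.4, 31.95, 30.3 and 24.1 FPKM. Acsl5 peaked at 2.12 ± 0.72 h with 0.56 log2 (SE 0.11, adjusted p = 0.007965), Acot1 at 22.3 ± 0.75 h with 0.66 log2 (SE 0.13, adjusted p = 0.01089), Cpt1a at 9.33 ± 0.82 h with 0.66 log2 (SE 0.14, adjusted p = 0.01798) and Eci2 at 11.8 ± 0.84 h with 0.43 log2 (SE 0.09, adjusted p = 0.02101). Cpt1a averaged 91.5 ± 8.93 FPKM at ZT8 and 54.2 ± 6.31 FPKM at ZT20 under chow (SD, n = 3 each), its highest and lowest means. Vnn1, Cpt1a and Eci2 thus had their fitted peaks late in the light phase, and Acot1 and Acsl5 around the end of the dark phase and the start of the light phase. The calls of Acsl5 and Eci2 were lost without the 4 libraries with adrenal transcripts (adjusted p = 0.07148 and 0.0948), where their peak-to-trough differences were 0.58 and 0.40 log2, and that of Eci2 also without chow ZT0 replicate 4 or 5 (adjusted p = 0.05711 and 0.05497). Without ZT0 and ZT4 the calls of Vnn1, Acsl5 and Eci2 under chow (adjusted p = 0.05949, 0.7814 and 0.5534, each the highest over its alternatives, whose lowest were 0.001394, 0.0007093 and 0.001289) and that of Acot2 under high-fat diet (adjusted p = 0.1691) were lost. Only ZT8, 12, 16 and 20 remain in that fit, so it does not cover the whole 24 h cycle. It lacks the lowest chow means of Vnn1 and Eci2, at ZT0, and the highest of Acsl5, at ZT4. The share of all genes it called was not tallied. The call of Acot2 was also lost in 1 fit of all 36 libraries (limma adjusted p = 0.08988), with its difference still at 0.35 log2.

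**Figure D4:**
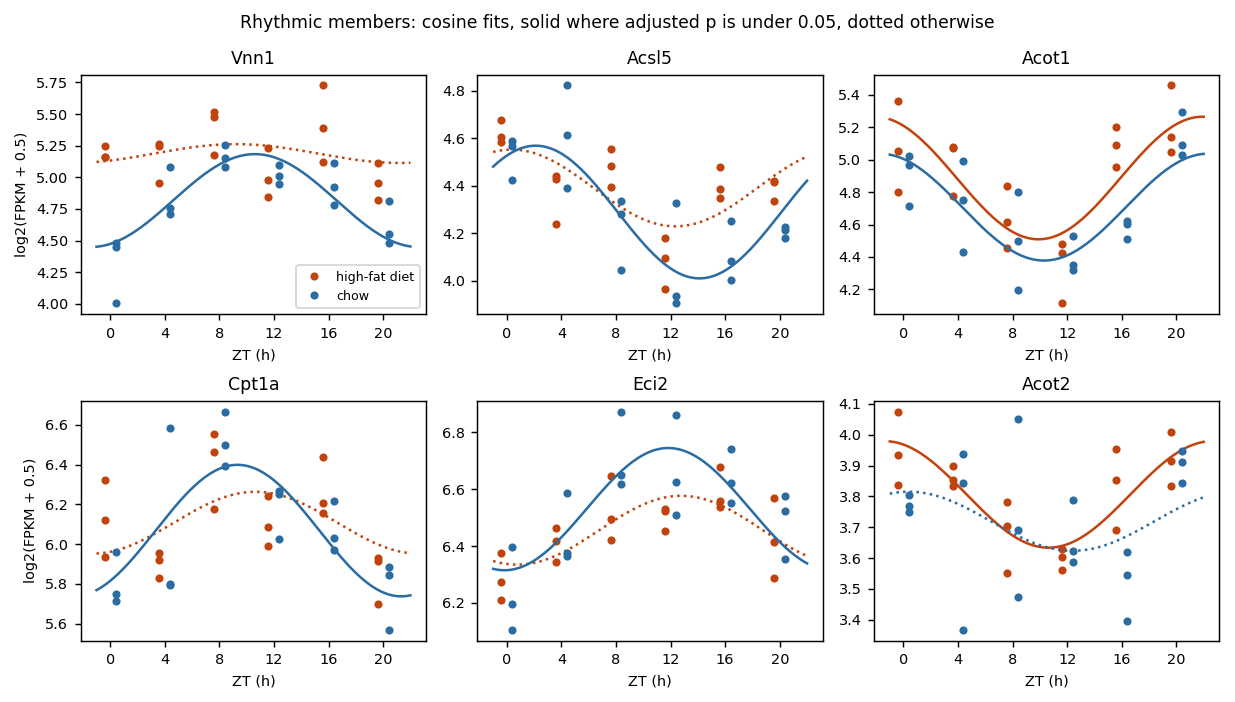
Log2(FPKM + 0.5) by time of day for the 6 members that were rhythmic under at least 1 diet; points are libraries, high-fat diet drawn left of chow, and curves are 24 h cosine fits, solid where the adjusted p was under 0.05 and dotted otherwise. Acot1 has solid curves under both diets with peaks at 21.9 h and 22.3 h, and the chow curve of Vnn1 spans 0.73 log2 where its high-fat curve spans 0.15.

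The rhythms did not differ between diets past the threshold for any member, and did so for 0.0269% of all genes. The 3 members with the smallest p in the test of the difference were Vnn1, Acadvl and Cpt2, with unadjusted p = 0.02041, 0.103 and 0.1192 and an adjusted p of 1 for each in limma; Vnn1 was the only member with an unadjusted p under 0.05, against 3.17% of all genes. With time as a factor the count was again 0, against 0.0179% of all genes. Vnn1 had a peak-to-trough difference of 0.15 log2 (SE 0.15, adjusted p = 0.8286) under high-fat diet, against 0.73 log2 under chow. Acadvl had 0.05 log2 under high-fat diet and 0.16 log2 under chow, and Cpt2 had 0.15 log2 under high-fat diet and 0.29 log2 under chow. Of the members called under chow alone, Acsl5 had 0.32 log2 under high-fat diet and 0.56 log2 under chow, Cpt1a had 0.31 log2 under high-fat diet and 0.66 log2 under chow, and Eci2 had 0.24 log2 under high-fat diet and 0.43 log2 under chow. Acot2, called under high-fat diet alone, had 0.35 log2 there and 0.19 log2 under chow (limma adjusted p = 0.6077 under chow). Its difference in rhythm had an unadjusted p of 0.4187 in limma. A rhythm called under 1 diet and not under the other is therefore not shown to differ between them.

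Time as a factor lets each time differ freely and so also follows patterns other than a 24 h cosine. In that fit, 14 of 32 members varied over the day under high-fat diet, against 28.4% of all genes, and 1 under chow (Vnn1, limma adjusted p = 0.01467), against 3.37%. The 14 were Acsl1, Acsl3, Acsl5, Cpt1a, Acadl, Acadm, Acad11, Hadhb, Echs1, Decr1, Etfa, Etfdh, Acot1 and Acot2. In 18 of 32 members the high-fat means at ZT0, 8 and 16 were all above those at ZT4, 12 and 20, an order held by 30.3% of all genes; under chow 0 of 32 members and 5.38% of all genes held it. Acsl1 had high-fat means from ZT0 to ZT20 of 32.5, 18.2, 25.6, 17.5, 34.0 and 26.3 FPKM, and Decr1 of 71.05, 66.3, 76.8, 62.2, 82.2 and 70.1 FPKM. Decr1 was thus higher at ZT8 and ZT16 than at ZT12 under high-fat diet, with values of 73.2, 75.05 and 82.3 FPKM at ZT8, 61.9, 62.2 and 62.4 FPKM at ZT12 and 70.8, 84.7 and 90.96 FPKM at ZT16.

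Under high-fat diet the dependence of values on transcript GC content moved with the same times. Under high-fat diet its slope, in log2 per 10 points of GC, was -0.28, -0.15 and -0.13 in the ZT8 libraries, -0.28, -0.14 and 0.01 at ZT16 and -0.08, -0.05 and -0.04 at ZT0, against 0.03, 0.05 and 0.28 at ZT4, -0.01, 0.08 and 0.12 at ZT12 and -0.03, -0.03 and 0.06 at ZT20. Chow libraries had slopes of -0.01, 0.13 and 0.14 at ZT0, -0.40, 0.09 and 0.45 at ZT4 and -0.20, -0.05 and 0.19 at ZT8. They had -0.11, 0.12 and 0.31 at ZT12, -0.15, -0.08 and -0.02 at ZT16 and -0.01, 0.05 and 0.15 at ZT20. The spread within a time was thus wider under chow than under high-fat diet at every time but ZT16. The median GC content of the members' transcripts was 49.87%, against 51.23% over all genes tested. After this trend was removed from each library, a fit added after the data were seen, 9 of the 14 members still varied over the day under high-fat diet and no other did (20.8% of all genes) and 3 of 32 did under chow (6.13%). Acsl3, Acadl, Hadhb, Echs1 and Decr1 were no longer called under high-fat diet (limma adjusted p = 0.1711, 0.5106, 0.6403, 0.1863 and 0.2621); the values of Decr1 at ZT8, ZT12 and ZT16 given above are those before this step. In the comparison of levels over the day, removing the trend gave 16 members higher, the 9 among them, and 1 lower (10.7% and 8.18% of all genes). The same step took out each library's mean deviation over genes, so it rescaled the libraries as well. What part base composition has in these values was not tested further.

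**Figure D5:**
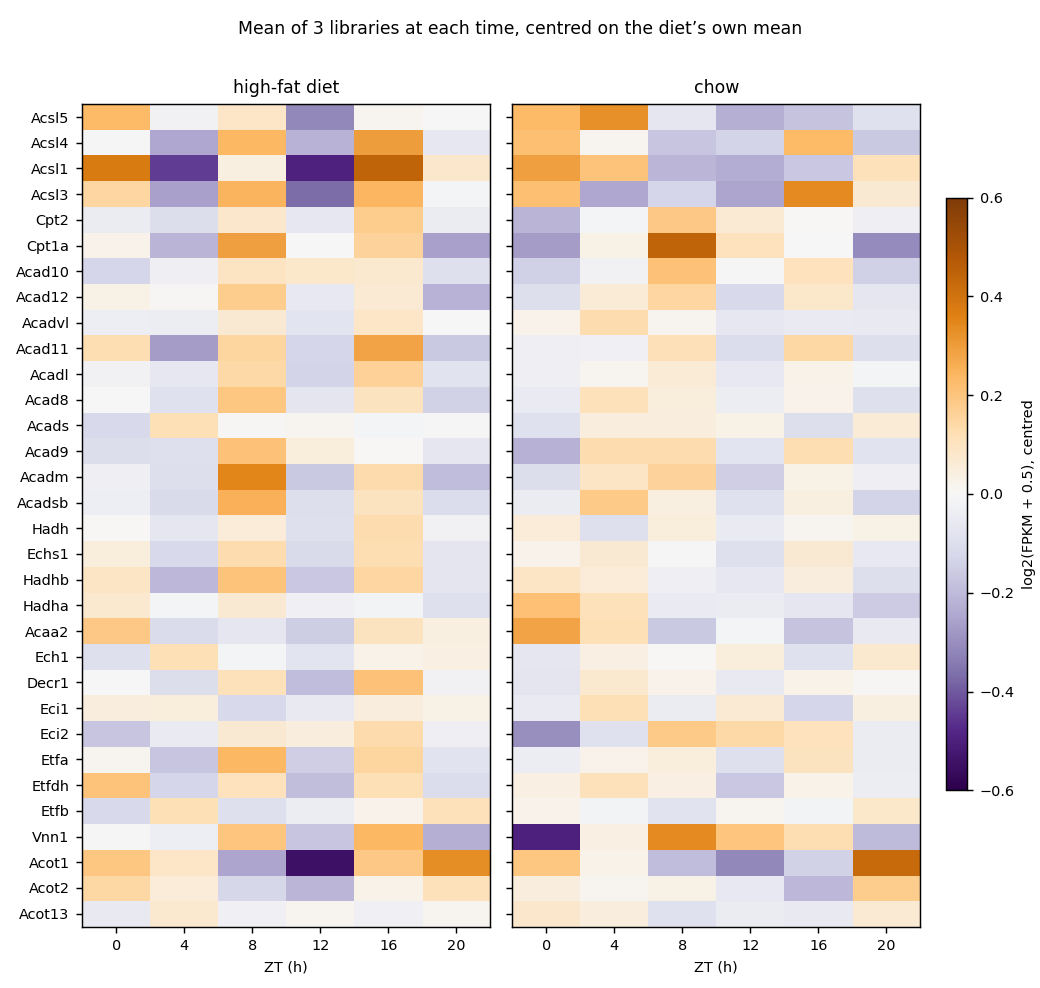
Log2(mean FPKM + 0.5), with the mean taken over 3 libraries at each time, for the 32 members, centred on each gene's own mean in that diet. High-fat diet is on the left and chow on the right, with orange above and purple below the gene's mean. In the high-fat panel 18 rows are higher at ZT0, 8 and 16 than at ZT4, 12 and 20, and in the chow panel 0 rows are.

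Genes around the pathway were read from lists that share some genes with each other. Beside the counts of these lists, 5.25% of all genes tested were higher and 11.4% lower over the day. Of 9 tested genes for carnitine supply and malonyl-CoA, 0 were higher and 2 lower over the day: the acetyl-CoA carboxylases Acaca and Acacb, which make the malonyl-CoA that inhibits Cpt1a, fell by 0.99 and 0.70 log2 (limma adjusted p = 1.271e-07 and 8.692e-07). Acaca averaged 2.06 ± 0.37 FPKM under high-fat diet and 4.94 ± 2.39 FPKM under chow (SD, n = 18 each), and Acacb averaged 2.37 ± 0.48 FPKM under high-fat diet and 4.22 ± 1.24 FPKM under chow (SD, n = 18 each). Adipocytes also express Acaca, and 12 of the 15 fat markers above were lower under high-fat diet too, while 1 was higher. Their part in this difference was not tested. Of 18 tested peroxisomal oxidation genes 3 were higher and 0 lower: the oxidase Acox3 (0.29 log2, adjusted p = 0.0003958), the multifunctional enzyme Hsd17b4 (0.17 log2, adjusted p = 0.003715) and Acot12 (0.21 log2, adjusted p = 0.04677). The median over those 18 was 0.07 log2, against 0.08 log2 over the 32 mitochondrial members, and the difference between the lists was not tested.

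Of 13 tested regulators of fatty acid oxidation 2 were higher and 2 lower, against 5.25% and 11.4% of all genes. Ppara, which encodes the receptor PPARα, rose by 0.28 log2 (limma adjusted p = 0.007753) and Sirt3, a mitochondrial deacetylase, by 0.17 log2 (adjusted p = 0.004845). Ppard, a related receptor, fell by 0.44 log2 (adjusted p = 0.0003903) and Esrra, an oestrogen-related receptor, by 0.09 log2 (adjusted p = 0.04071). Of 16 tested further PPARα target genes 4 were higher and 1 lower, against the same shares of all genes. The fatty acid hydroxylase Cyp4a14 rose by 1.23 log2 (SE 0.28, limma adjusted p = 0.002539), more than any of the 32 oxidation enzymes. Cyp4a31 rose by 0.21 log2 (adjusted p = 0.01674), and Fabp3, a fatty acid carrier, fell by 0.35 log2 (adjusted p = 7.325e-05).

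Of the markers of kidney cell types, 2 proximal tubule genes were higher and 5 lower of 16, and 1 distal gene higher and 5 lower of 11. Macrophage genes were higher in 2 of 6, and none of 5 podocyte or 5 endothelial genes passed. Over all genes tested, 5.25% were higher and 11.4% lower. The proximal tubule list, the cells in which these enzymes are most used, had a median difference of -0.04 log2, against 0.08 log2 over the 32 members.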

How the data were processed

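RNA was sequenced from kidneys in 12 groups of 3 libraries. Per the labels' protocols, TRIzol extraction was followed by TruSeq library preparation. The authors deposited FPKM values, 1 table per diet. The submitters' processing notes name CASAVA 1.8.2, Bowtie, Cuffnorm and the build mm10; no version of Bowtie or Cuffnorm is given in the sources used here. Symbols found on several rows (280 symbols, 817 rows) were dropped. No pair of libraries had the same values. Relative depth came from the steps between low values of 1508 genes, 92.5% of which lay within 0.05 of whole multiples.

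Values were tested as log2(FPKM + 0.5) for 11144 genes with a mean of at least 1 FPKM, with limma 3.58.1 in R 4.3.3, a mean-variance trend and a Benjamini-Hochberg threshold of 0.05 over all genes. Because FPKM is a scaled unit, count models were left out. Levels came from a fit of 12 group means, contrasted at each time and averaged over the 6 times, and rhythms from 24 h cosine terms, whose difference was tested over all 36 libraries. The fits were tested on simulated data with noise independent between genes. The planted changes were larger than any member's level change over the day or rhythm, so recovery at the members' sizes was not tested. Values in full are given for members past a threshold, or the 3 with the smallest p where none passed, at single times for up to 2 members per direction, and for up to 4 genes of each other list, of which 1 is not reported here. Members and lists were chosen with earlier results of these data known. Alternatives were other pseudocounts, filters and rescalings, a robust prior, a replicate block, an adipocyte covariate, removal of each library's GC trend, left-out libraries or times, time as a factor and 1 fit of all 36 libraries; time as a factor after GC removal was added after the data were seen. Coordinates follow GENCODE M21 (GRCm38) and count from 1.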

Additional observations from a re-analysis of the deposited data

How the results depend on the processing

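Leaving out 1 library at a time kept 9 to 14 members higher over the day (14 without chow ZT4 replicate 4, with all 9 kept) and 1 to 4 lower: 4 without chow ZT4 replicate 4, 3 without chow ZT20 replicate 3, and 2 without chow ZT0 replicate 5, ZT4 replicate 2, ZT8 replicate 1 or ZT16 replicate 4, or without high-fat ZT12 replicate 5 or ZT16 replicate 1. The counts at single times were then 1 to 3 at ZT0, 0 to 5 at ZT4, 0 to 1 at ZT12, 0 to 2 at ZT16 and 0 at ZT8 and ZT20. Those of rhythm were 2 under high-fat diet, 4 to 5 under chow and 0 for the difference. The shares of all genes in the fits without 1 library were not tallied. For the day, members higher were 15 with median ratio rescaling, 16 with the GC trend removed and 5 with the adipocyte covariate. Members lower were 0 of 30 tested at a mean of at least 5 FPKM, where Acsl3 is filtered out. With median ratio rescaling the counts were 4 at ZT0, 1 at ZT4 and 1 at ZT12, against 1.69%, 1.62% and 0.323% of all genes. With the GC trend removed they were 5 at ZT0, 3 at ZT4, 1 at ZT8, 1 at ZT12, 2 at ZT16 and 1 at ZT20, against 2.57%, 3.01%, 0.53%, 0.66%, 0.837% and 0.363% of all genes, also more than without this step at every time. With the 4 adrenal-positive libraries left out they were 21 at ZT4, where a single chow library is left and is assumed to vary like the other groups, and 1 at ZT12 (44.3% and 0.826% of all genes); with a mean of at least 5 FPKM the count at ZT16 was 1 (0.855%). Rhythmic members under high-fat diet were 14 with time as a factor and 9 with that after GC removal (28.4% and 20.8% of all genes). Under chow they were 1 and 3 in those fits (3.37% and 6.13% of all genes). Without ZT0 and ZT4 they were 1 under high-fat diet and 2 under chow, and 1 under high-fat diet in the fit of all 36 libraries. For these last fits and the replicate block the shares of all genes were not tallied. Their counts are therefore not read as a result about the members. Libraries of the same replicate number had a median correlation of deviations of 0.04 over 119 pairs, from -0.61 to 0.48, so the numbers were not taken to pair the samples; with the replicate block the count was 1 at ZT0 and 0 for rhythm under high-fat diet, where Acot1 had a peak-to-trough difference of 0.50 log2 (adjusted p = 0.2083) and Acot2 one of 0.32 log2 (adjusted p = 0.1256), and Eci2 under chow had an adjusted p of 0.05073 in limma. No result of a single member that was followed through the alternatives changed direction. Not every member was followed. The median difference over all genes went from -0.03 log2 to 0.001 log2 with the GC trend removed. That step takes out each library's mean deviation over genes as well as its GC slope, so it also rescales the libraries. The shift of this median thus follows from the step itself. How much of the shifts in the counts came from the slope and how much from the rescaling was not tested. Depth limits the members below 5 FPKM, Acsl3 and Acsl4, most.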
